A study of Mus musculus with 18 samples.

Results

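Kidneys taken 3 days after unilateral ischemia-reperfusion (UIR) were compared with kidneys taken 3 days after sham treatment, over every gene with a value of 1 FPKM or more in at least 3 of the 18 RNA sequencing libraries of the series. FPKM counts sequenced fragments relative to transcript length and to library size. The comparison rests on 6 libraries, 3 UIR and 3 sham, each labelled as a biological replicate, and on 14716 of the 20825 genes in the table. The other 12 libraries are UIR and sham kidneys of days 1 and 21, with 3 libraries per group. They are used for the effect on those days and for the estimate of the spread. All groups are C57BL/6 mice of 11 postnatal weeks, with no transgene and no drug named in the labels apart from the isoflurane anesthesia. In the UIR groups the right renal pedicle was clamped for 45 min and then released, while the left kidney stayed intact. The model is therefore one of injury with a healthy kidney left in place, in which the injured organ does not carry renal function alone. The labels give neither the sex of the mice nor the side of the kidney that was sequenced.

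Ischemia injures above all the proximal tubule, the segment that reabsorbs most of the filtered solute and lives largely on fatty acid oxidation. Surviving tubule cells are known to lose specialised functions for a time, to spread, to enter the cell cycle and to refill the tubule, while monocytes and lymphocytes enter and stromal cells lay down matrix. If the repair stalls, tubule loss, inflammation and scarring persist. Day 3 lies in the period in which proliferation after such an injury is usually described, and the genes below are ordered along that sequence: tubule identity, fuel use, cell cycle, stress, immune cells, matrix, signals and vessels.

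The 6 libraries separated by treatment. Within a group, the correlation of log2(FPKM + 1) between libraries was at least 0.984, and between a sham and a UIR library it was at most 0.835. The number of reads behind the values is not given. As a rough guide to the relative worth of 1 read, low FPKM values of single-transcript genes were divided by those of sham library 1. The most frequent ratio was 0.84 to 0.86 in the UIR libraries, and 1.06 and 1.22 in sham libraries 2 and 3. Differences in expression can also move this ratio. The 10 most abundant genes held 18.3 to 19.7% of all FPKM in the sham libraries and 6.8 to 7.6% in the UIR libraries. At least 1 FPKM was reached by 12048 to 12236 genes in the sham libraries and by 13243 to 13519 in the UIR libraries. Defining genes of kidney tubule were abundant in the sham libraries, with Slc34a1 of the proximal tubule at 2677, 2701 and 2971 FPKM, and of 11 adrenal genes 1 passed the filter. Sham library 2 stood apart in several respects. Red cell genes summed to 651, 2157 and 536 FPKM in the 3 sham libraries, the clock output gene Dbp was at 74.04, 6.29 and 55.9 FPKM, and the endoplasmic reticulum chaperone Hspa5 was at 162, 469 and 159.9 FPKM. Among the UIR libraries, genes of T and natural killer cells, of antigen presentation and of fibrillar matrix and myofibroblasts were highest in replicate 1 and lowest in replicate 3. Values without 1 of these libraries are given beside the lists concerned.

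Differences are given as UIR minus sham on the log2(FPKM + 1) scale, which understates the change of genes with low values. They were tested with limma across all 14716 genes, with Benjamini-Hochberg adjustment and an adjusted p of 0.05 as the threshold. A gene is said to have risen or fallen only where it passed. At day 3, 75.5% of all genes tested passed, 57.6% as risen and 17.9% as fallen. All 3 UIR values lay above all 3 sham values for 59.3% of genes and below them for 19.4%. Every day 3 count below is to be read against these shares. For counts of the other days, the same fit called 4187 of the 14716 genes risen and 4583 fallen at day 1. At day 21 it called 8934 risen and 2951 fallen. Genes that are silent in sham kidneys entered the test only through the libraries in which they were high, so counts of risen genes among those tested describe the genes tested and not whole pathways. Of the risen genes, 3361 rose by at least 2-fold, 220 by at least 8-fold and 20 by at least 32-fold. Of the fallen genes, 1149 fell by at least 2-fold, 186 by at least 8-fold and 39 by at least 32-fold.

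The split between risen and fallen genes depended on the scaling of the libraries. The median difference over all genes was 0.44 with FPKM as deposited and 0.02 after median-of-ratios scaling, which sets the typical gene equal in all libraries. With that scaling 35.2% of 14572 genes were higher and 34% were lower, so that the share of risen genes among those called went from 76.3% to 50.8%. It was 51.2% after quantile normalization and 84.3% after rescaling to TPM, which gives every library the same sum. The scaled value is therefore given beside each gene below whose rise or fall was no longer called after median-of-ratios scaling, and a list is described beside the all-gene median of 0.44.

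**Figure D1:**
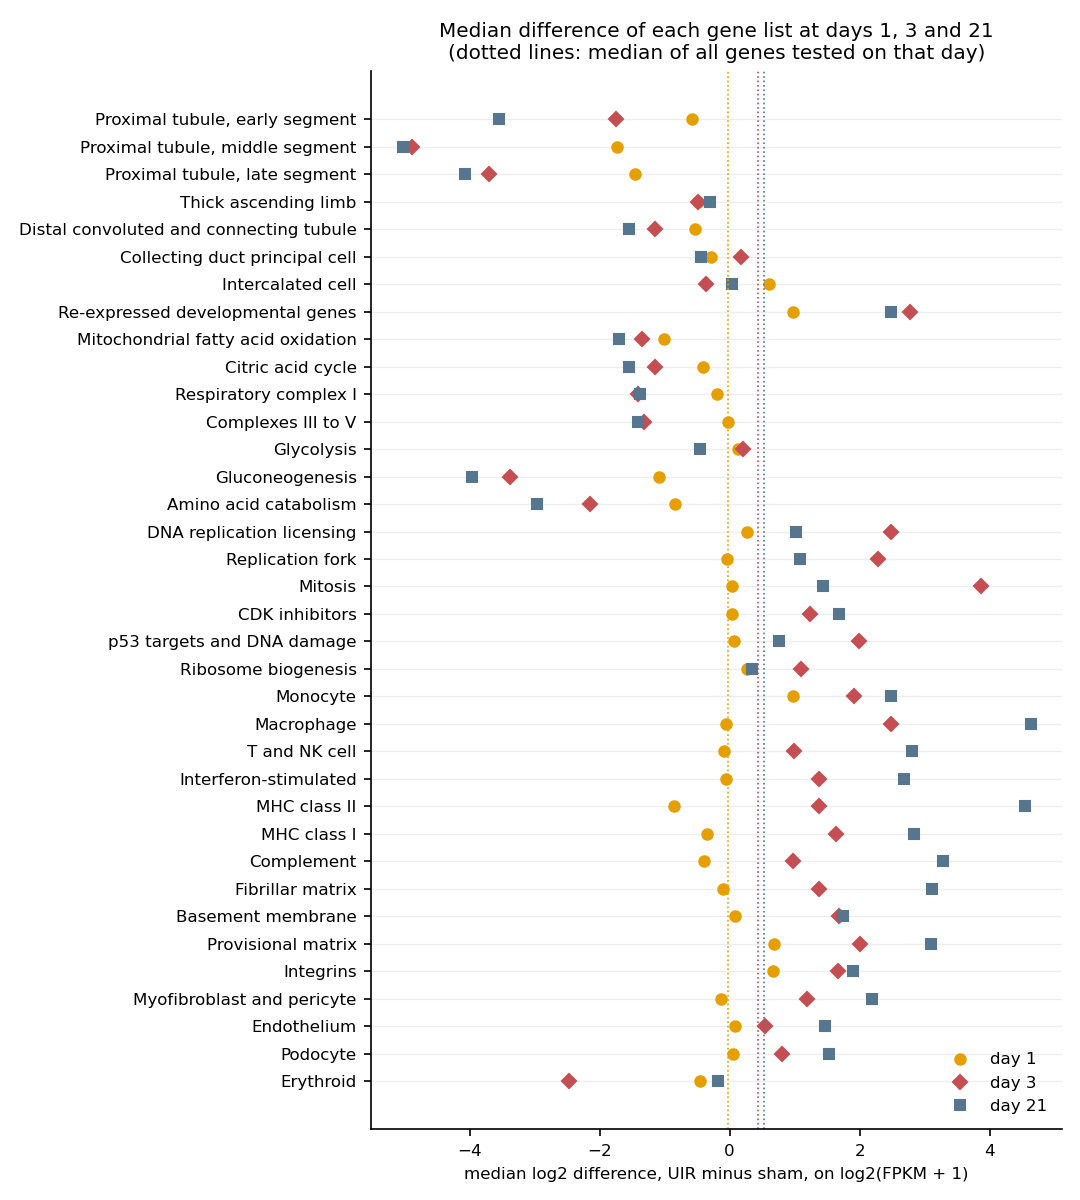
Median log2 difference (UIR minus sham, on log2(FPKM + 1), horizontal axis) of 36 gene lists at day 1 (circles), day 3 (diamonds) and day 21 (squares), with dotted lines at the median of all genes tested on each day. At day 3 the list of the middle proximal tubule had a median of -4.89, and the list of mitosis genes had a median of 3.87, against 0.03 at day 1 and 1.44 at day 21.

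Genes of the proximal tubule fell in all 3 of its segments. In bulk tissue, fewer cells of a type and less RNA per cell cannot be told apart, here and in every result below. Of 12 genes of the early segment tested, 9 fell and 1 rose, with a median of -1.74. Of 10 genes of the middle segment, 10 fell (median -4.89), and of 13 genes of the straight segment 13 fell (median -3.70). The early segment reabsorbs glucose, phosphate and amino acids. Its glucose carrier Slc5a2 was at 201, 226 and 198 FPKM in the sham kidneys and 32.7, 37.3 and 20.7 FPKM in the UIR kidneys, a log2 difference of -2.78 (SE 0.46, limma adjusted p = 4.5e-05). The phosphate carrier Slc34a1 was at 159.9, 181 and 87.1 FPKM in the UIR kidneys and differed by -4.34 (SE 0.54, limma adjusted p = 2.1e-06) from the sham values given above. For both genes, UIR library 3 was the lowest and no UIR value reached a sham value. The citrate and dicarboxylate carrier Slc13a3 differed by -4.24 and the polyol enzyme Sord by -3.29. The lactate carrier Slc5a12 differed by -1.88 and the neutral amino acid carrier Slc6a19 by -2.58. The exception that rose was Slc7a8, a basolateral amino acid exchanger. It was at 56.9, 59.97 and 49.05 FPKM in the sham kidneys and 77.4, 77.7 and 75.1 FPKM in the UIR kidneys, a difference of 0.47 (SE 0.16, limma adjusted p = 0.013) that turned to -0.06 after median-of-ratios scaling.

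The middle segment secretes organic anions, and its carriers fell to a small part of their sham values. Slc22a6, the organic anion transporter 1 of the basolateral membrane, was at 417, 344 and 462 FPKM in the sham kidneys and 15.97, 14.98 and 12.5 FPKM in the UIR kidneys, a difference of -4.72 (SE 0.44, limma adjusted p = 8.4e-08). Slc22a8, the organic anion transporter 3, was at 277, 250.04 and 258 FPKM in the sham kidneys and 3.02, 1.82 and 2.55 FPKM in the UIR kidneys and differed by -6.26 (SE 0.37, limma adjusted p = 4.8e-10). Slc22a7 went from 68.9, 71.7 and 42.2 FPKM to 0.08, 0.03 and 0 FPKM, close to the lowest value the table holds. The urate exchanger Slc22a12 fell by 5.39. In the straight segment, the carrier Slc22a30 fell by 5.51, the aminoacylase Acy3 by 5.22 and the aspartic protease Napsa by 4.82. None of these genes had overlapping groups. For Slc22a8 and Slc22a7, which are among the 15 largest decreases, this follows from the selection of genes without overlap. The others were named as key members of their list or for the size of their change. The fall deepened with time for the early segment. Its median was -0.58 at day 1 and -3.55 at day 21, and 7 of its 12 effects were lower at day 21 than at day 3 in the test of that difference. For the middle and straight segments the day 21 medians were -5.03 and -4.07. In the middle segment 3 effects were lower and 1 was higher at day 21 than at day 3. In the straight segment 2 were lower and 2 were higher. Between days 1 and 3, 8 of 10 middle and 11 of 13 straight segment effects became lower. Over all genes, 50.1% of effects were higher and 12.7% lower at day 3 than at day 1, and 26.1% were higher and 20.2% lower at day 21 than at day 3.

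Transcription factors that maintain tubule identity were divided. Of 18 tested, 9 fell and 3 rose, with a median of -0.41. Hnf4a, which drives proximal tubule differentiation, was at 275, 247 and 289 FPKM in the sham kidneys and 123, 126 and 119 FPKM in the UIR kidneys, a difference of -1.13 (SE 0.25, limma adjusted p = 6.4e-04). Its effect was -2.27 at day 1 and -3.13 at day 21. The fatty acid sensor Ppara differed by -2.08, the homeobox gene Emx1 by -1.42 and the bile acid receptor Nr1h4 by -1.28. Esrrg (-0.14, adjusted p = 0.51 in limma) and Ppargc1a (-0.40, adjusted p = 0.051) did not pass. Factors of the distal nephron and collecting duct moved the other way: Tfcp2l1 rose by 1.03 and Tfap2b by 1.05.

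Protein uptake from the filtrate was split by gene. The receptors megalin and cubilin carry filtered proteins into the cell. Lrp2, which encodes megalin, was at 157, 115 and 168 FPKM in the sham kidneys and 42.3, 44.4 and 36.9 FPKM in the UIR kidneys and differed by -1.79 (SE 0.41, limma adjusted p = 8.8e-04). Cubn differed by -1.23 and the albumin-rescuing receptor Fcgrt by -1.70. The endosomal chloride exchanger Clcn5 was at 6.68, 2.96 and 6.77 FPKM in the sham kidneys and 16.2, 16.2 and 15.98 FPKM in the UIR kidneys and rose by 1.47 (SE 0.20, limma adjusted p = 5.6e-06), with sham library 2 the lowest. The recycling factor Rab11a rose by 0.61 (0.09 after scaling) and the lysosomal protease Ctsb by 0.49, which turned to -0.04 after scaling. The list thus held 3 risen and 3 fallen genes of 8, and after scaling 1 and 4.

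In the distal segments single genes changed far more than the rest of their list. In the thick ascending limb, which makes urine concentration possible, 7 of 12 genes fell and 2 rose, with 4 fallen without UIR library 3. Its salt carrier Slc12a1 was at 98.3, 117 and 97.98 FPKM in the sham kidneys and 102, 111 and 84.5 FPKM in the UIR kidneys, with overlapping groups and a difference of -0.08 (SE 0.32, limma adjusted p = 0.84). Umod, which encodes uromodulin, fell by 0.49 and the potassium channel Kcnj1 by 0.55. The call on Kcnj1 was lost whichever of the 6 libraries was left out (limma adjusted p = 0.053 to 0.1), and that on Umod without sham library 2 or UIR library 3 (adjusted p = 0.071 to 0.076). The effect on Kcnj1 had been -2.71 at day 1. Egf, which this segment and the next one release into urine, was an exception in size. It was at 282, 237 and 271 FPKM in the sham kidneys and 18.04, 18.4 and 10.01 FPKM in the UIR kidneys and fell by 4.04 (SE 0.47, limma adjusted p = 9.1e-07). The phosphatase inhibitor Ppp1r1a fell by 1.90, the paracellular cation channel Cldn10 by 1.56 and the kininogen Kng2 by 1.51. The claudins Cldn16 and Cldn19, which let magnesium through, rose by 0.47 and 0.84, with differences of 0.00 and 0.34 after median-of-ratios scaling and, for Cldn16, of -0.10 after quantile normalization.

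In the distal convoluted and connecting tubule, 9 of 14 genes fell and 2 rose. Pvalb, the calcium buffer parvalbumin, was at 48.3, 34.4 and 36.1 FPKM in the sham kidneys and 0.12, 0.06 and 0 FPKM in the UIR kidneys. The calcium buffers Calb1 and S100g fell by 3.10 and 3.24, and the salt carrier Slc12a3 by 1.39. Kl, which encodes klotho, the FGF23 co-receptor, was at 223, 167 and 229 FPKM in the sham kidneys and 40.1, 47.7 and 38.8 FPKM in the UIR kidneys, a difference of -2.26 (SE 0.29, limma adjusted p = 3.4e-06). The calcium channel Trpv5 rose by 1.29 and the prostaglandin synthase Ptgds by 3.29. In collecting duct principal cells, the water channels Aqp2 and Aqp3 differed by -1.10 and -1.02 and the vasopressin receptor Avpr2 by -0.80. The sodium channel subunit Scnn1a fell by 0.31, Scnn1b rose by 0.53 and became 0.01 after scaling, and Scnn1g was at -0.07 (adjusted p = 0.72). Fxyd4, a sodium pump regulator, rose by 0.95, Gata3 by 0.65 and the cortisol-clearing enzyme Hsd11b2 by 0.64, and the last 2 were at 0.17 and 0.11 after scaling. Of the 10 principal cell genes, 4 rose and 4 fell, and after scaling 1 and 5, with the median going from 0.17 to -0.32.

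Intercalated cells secrete acid or base. Of 14 genes tested, 4 rose and 3 fell, and after scaling 3 and 9. Without sham library 1, sham library 3 or UIR library 3, 1 fell. Their master factor Foxi1 was at 27.7, 16.3 and 21.3 FPKM in the sham kidneys and 39.1, 37.2 and 36.5 FPKM in the UIR kidneys and rose by 0.79 (SE 0.21, limma adjusted p = 0.0026), or by 0.28 after scaling, which was not called. The acid-secreting cell factor Dmrt2 rose by 1.58, Adgrf5 by 1.11 and the receptor Kit by 0.95. Slc4a1, the basolateral anion exchanger of acid-secreting cells, stood at -0.66 (adjusted p = 0.078), and Slc26a4, pendrin of base-secreting cells, at -0.43 (adjusted p = 0.16). The base-secreting cell genes Slc4a9, Hmx2 and Insrr fell by 0.33, 0.52 and 0.95. The median of the list was -0.36 at day 3 and 0.61 at day 1. The thin limb was represented by 5 of 8 genes. Among them the water channel Aqp1, also a proximal tubule gene, was at 255, 212 and 214 FPKM in the sham kidneys and 13.9, 13.4 and 10.8 FPKM in the UIR kidneys and fell by 4.06. The ectoenzyme Bst1 rose by 3.30 and the urea carrier Slc14a2 by 0.41 (0.34 after scaling), while the metal carrier Slc39a8 fell by 1.49.

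**Figure D2:**
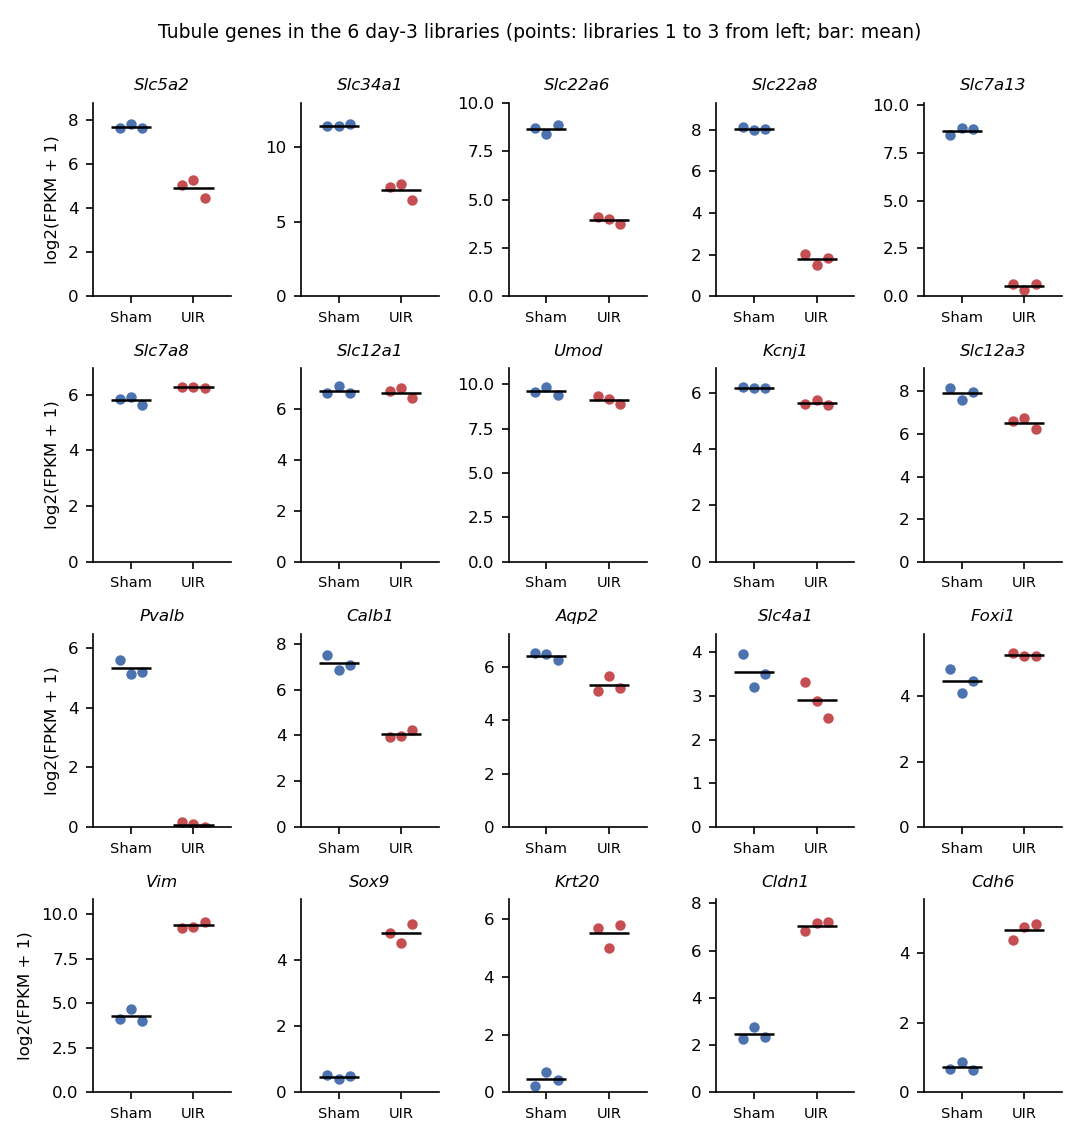
log2(FPKM + 1) of 20 tubule genes in the 6 day-3 libraries (vertical axis, from 0 in each panel), with points for libraries 1 to 3 from left and bars for group means. The proximal carriers in the top row show no overlap between sham and UIR kidneys, Slc12a1 of the thick limb overlaps, and Vim, Sox9, Krt20, Cldn1 and Cdh6 in the bottom row lie higher in all 3 UIR kidneys.

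Genes of the developing kidney and of dedifferentiated tubule cells rose at the same time. Of 21 tested, 19 rose and 1 fell, with a median of 2.77. Vim, the intermediate filament protein of mesenchyme and of injured tubule cells, was at 16.7, 24.6 and 15.04 FPKM in the sham kidneys and 602, 627 and 765 FPKM in the UIR kidneys, a difference of 5.09 (SE 0.24, limma adjusted p = 4.3e-11). Sox9, a factor of progenitor-like tubule cells, was at 0.44, 0.32 and 0.41 FPKM in the sham kidneys and 27.5, 22.2 and 32.9 FPKM in the UIR kidneys. Sox4 rose by 2.90, the surface protein Cd24a by 2.77, Myc by 3.33 and the matrix cytokine Spp1 by 4.27. Pax8, a nephron lineage factor, rose by 0.82, and Lhx1 fell by 0.43. Cdh6, the cadherin of early proximal tubule, rose by 3.92, and Ncam1 of the developing nephron by 2.77. These last 2 and Cdh2 below were chosen after their values were seen. At day 21, 6 of the 21 effects were lower than at day 3 and 0 were higher.

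Keratins and junction proteins of simple epithelium changed with them. Of 22 tested, 19 rose. Krt19, a ductal keratin, rose by 4.16, Krt8 by 2.33 and Krt7 by 0.65, which was 0.12 after scaling. The barrier claudin Cldn1 was at 3.85, 5.90 and 4.07 FPKM in the sham kidneys and 113, 142 and 145 FPKM in the UIR kidneys, a difference of 4.59 (SE 0.18, limma adjusted p = 3.3e-12), and Cldn4 rose by 3.20. For Krt20, the keratin that marks injured tubule, the effect of 5.05 differed from that of day 1 by -1.13 (limma adjusted p = 0.087, not passed). At day 21 it was lower than at day 3, by -2.69 (limma adjusted p = 9.8e-04). The neural cadherin Cdh2 of the proximal tubule rose by 2.66 at day 3 against 0.27 and 0.68 on the other days. The gap junction gene Gjb2 fell by 1.93. Among secreted and surface products of injured tubule, 19 of 28 rose and 0 fell. The galectin Lgals3 rose by 2.77 and the fatty acid binding protein Fabp1 by 0.91 (adjusted p = 0.0075 in limma).

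Mitochondrial and peroxisomal fuel use fell broadly. Of 18 genes of mitochondrial fatty acid oxidation 17 fell and 0 rose, with a median of -1.34. Acadm, the medium-chain acyl-CoA dehydrogenase, was at 316, 360.3 and 332 FPKM in the sham kidneys and 58.03, 57.1 and 56.96 FPKM in the UIR kidneys, a difference of -2.53 (SE 0.16, limma adjusted p = 8.4e-10). The electron carrier Etfb fell by 2.18, Hadh by 1.80 and Cpt2 by 1.76. Cpt1a, the entry step of the pathway, fell by 0.78. In peroxisomes, 16 of 18 genes fell. The bifunctional enzyme Ehhadh was at 269, 249.5 and 305 FPKM in the sham kidneys and 17.04, 13.7 and 14.9 FPKM in the UIR kidneys, and fell by 4.09. Amacr fell by 3.71, Acaa1b by 3.58, Acox2 by 3.42 and catalase, Cat, by 2.34. The transporter Abcd2 alone rose, by 0.20, with a difference of 0.00 after median-of-ratios scaling and -0.30 after quantile normalization.

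Subunits of the respiratory chain fell mainly between days 1 and 3. Complex I, the entry point of electrons from NADH, had all 36 of its 36 nuclear-coded subunits tested fallen at day 3, with a median of -1.41. At day 1 the median was -0.19 and 13 had fallen, and the day 3 effect was lower than the day 1 effect for 35 of 36. Ndufb9, a small subunit of the membrane arm, was at 383, 370.3 and 307 FPKM in the sham kidneys and 99.9, 103 and 105 FPKM in the UIR kidneys, and differed by -1.77 (SE 0.10, limma adjusted p = 1.9e-10). Its effect was 0.08 at day 1 and -1.50 at day 21, and it was chosen after its values were seen. Ndufv3 fell by 2.15, Ndufa1 by 1.96, Ndufc1 by 1.95 and Ndufb4 by 1.93. Complexes III to V followed the same course. All 34 of 34 subunits fell at day 3 (median -1.32), 4 had fallen at day 1 (median -0.02), and 32 effects were lower at day 3 than at day 1. Cox6c was at 542, 682 and 546 FPKM in the sham kidneys and 116, 137 and 142 FPKM in the UIR kidneys and fell by 2.15, Uqcrb by 1.83, Cox7a2 by 1.66 and Cox6a1 by 1.54. At day 21 the medians were -1.38 and -1.41. The mean of sham kidneys also differed between days, so for Ndufb9 the group means were 233 and 248 FPKM at day 1, 354 and 103 FPKM at day 3, and 267 and 93.5 FPKM at day 21, sham before UIR.

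The tricarboxylic acid cycle lay between the pathways. Of 22 genes 21 fell (median -1.14), after 15 at day 1 (median -0.41), and 19 effects were lower at day 3 than at day 1. Pcx, which fills the cycle from pyruvate, fell by 3.64, Sdhb by 1.90, Mdh1 by 1.89 and Suclg2 by 1.54. Mitochondrial ribosomal proteins fell less: 19 of 31 fell and 2 rose, with a median of -0.34. Mrpl12 fell by 0.96, Mrpl4 by 0.88, Mrps35 by 0.84 and Mrpl34 by 0.81. Mrpl3 and Mrpl19 rose by 0.60 and 0.36, which became 0.09 and -0.09 after scaling.

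**Figure D3:**
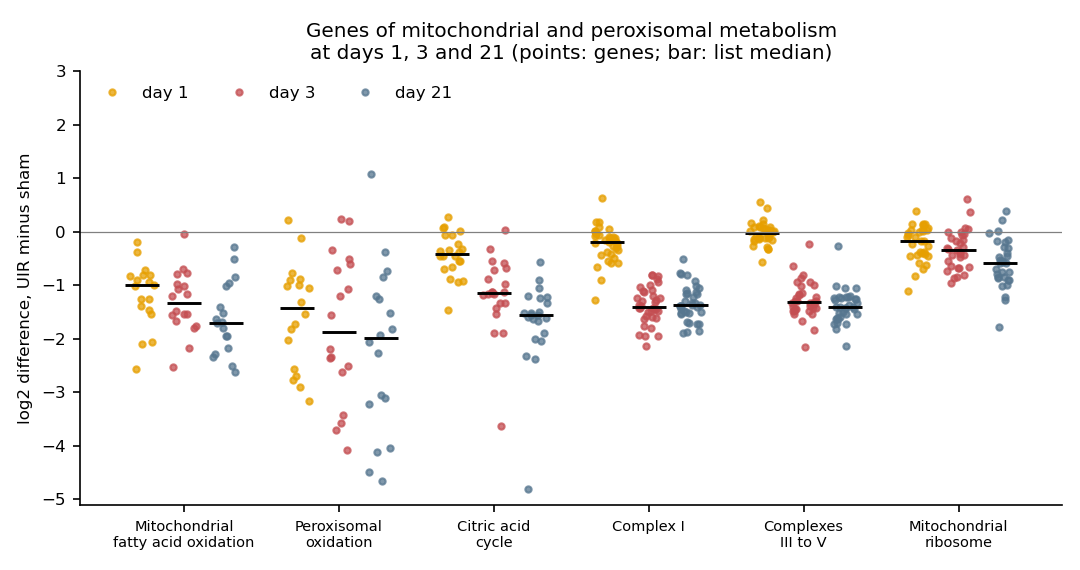
Log2 difference (UIR minus sham, on log2(FPKM + 1), vertical axis) of each gene of 6 mitochondrial and peroxisomal lists at days 1, 3 and 21, with bars for list medians. The fatty acid oxidation lists lie below 0 on every day, while the medians of complex I and of complexes III to V move from -0.19 and -0.02 at day 1 to -1.41 and -1.32 at day 3.

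Sugar metabolism changed isoform by isoform. The proximal tubule makes glucose and uses little of it, and the genes of gluconeogenesis fell: 9 of 10 did, with a median of -3.38. Pck1, the committed step, was at 661, 827 and 694 FPKM in the sham kidneys and 17.1, 14.5 and 18.7 FPKM in the UIR kidneys, a difference of -5.36 (SE 0.41, limma adjusted p = 9.0e-09). G6pc, which releases free glucose, was at 172, 316 and 162 FPKM in the sham kidneys and 5.34, 3.38 and 2.64 FPKM in the UIR kidneys and fell by 5.48, after -0.38 at day 1 (adjusted p = 0.42 in limma). Fbp1 was at 690.2, 561 and 654 FPKM in the sham kidneys and 35.8, 31.5 and 20.2 FPKM in the UIR kidneys and fell by 4.43, after -0.49 at day 1. Khk of fructose use fell by 3.73. In glycolysis, 11 of 23 genes rose and 5 fell, a share of risen genes below that of all genes. After scaling 6 rose and 11 fell, and the median turned from 0.20 to -0.27. Among the risen genes were several isoforms of glycolytic enzymes. Hk2 was at 0.06, 0.16 and 0.07 FPKM in the sham kidneys and 8.03, 8.09 and 8.68 FPKM in the UIR kidneys, a difference of 3.08 (SE 0.20, limma adjusted p = 1.0e-09). The pyruvate kinase Pkm was at 135, 123 and 98.97 FPKM in the sham kidneys and 328, 357 and 358 FPKM in the UIR kidneys and rose by 1.55. Eno2 rose by 1.72, Pfkp by 1.60, Hk1 by 0.82 (0.29 after scaling), and the lactate exporter Slc16a3 by 1.19. The glucose carrier Slc2a1 rose by 1.19, after 2.42 at day 1 and before 0.13 at day 21. Core enzymes fell or did not pass. Gapdh fell by 0.36, with a difference of 0.30 after quantile normalization. Falls were also called for Tpi1 by 0.49, Pfkm by 0.54, Aldoc by 0.55 and the D-lactate dehydrogenase Ldhd by 3.31, and Ldha was at 0.12 (adjusted p = 0.19) and at -0.41 after scaling.

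Amino acid breakdown and NAD synthesis fell alongside. Of 29 genes of amino acid breakdown and creatine synthesis 26 fell and 3 rose, with a median of -2.15. Ass1, by which the kidney makes arginine, was at 3609, 3120.1 and 3319.98 FPKM in the sham kidneys and 211, 174 and 139 FPKM in the UIR kidneys, a difference of -4.27 (SE 0.32, limma adjusted p = 6.4e-09), after -0.28 at day 1. The choline-pathway enzyme Dmgdh fell by 4.86, the lysine enzyme Aass by 4.46, and the tyrosine enzymes Hpd and Hgd by 4.32 and 4.32. The arginase Arg2 rose by 1.72 and Oat by 0.28, which turned to -0.25 after scaling. The kidney makes NAD from tryptophan, and 13 of 15 genes of NAD synthesis and kynurenine use fell. Haao was at 149, 165 and 145 FPKM in the sham kidneys and 4.20, 5.52 and 3.01 FPKM in the UIR kidneys and fell by 4.90, Kmo by 4.33, Acmsd by 3.85 and Afmid by 2.45. Qprt, the step that commits quinolinate to NAD, fell by 0.77, and Nampt of the salvage path by 0.72. Nnmt, which methylates nicotinamide, was at 0.22, 0.27 and 0.08 FPKM in the sham kidneys and 4.63, 5.71 and 3.24 FPKM in the UIR kidneys and rose by 2.19, and Nmnat3 rose by 0.35, which turned to -0.14 after scaling.

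The enzymes of serine synthesis rose, and the first of them had its largest effect at day 3 among the 3 days measured. Phgdh, which commits a glycolytic intermediate to serine, was at 2.60, 5.15 and 3.54 FPKM in the sham kidneys and 144, 159 and 147 FPKM in the UIR kidneys, a difference of 5.02 (SE 0.23, limma adjusted p = 3.3e-11). Its effect was 1.47 at day 1 and 0.85 at day 21, and the difference between days was 3.55 from day 1 to day 3 and -4.17 from day 3 to day 21 (adjusted p = 3.0e-07 and 1.5e-07 in limma). Psat1 rose by 1.48. The mitochondrial one-carbon enzymes were divided: Mthfd2 rose by 2.00 and Mthfd1l by 2.62, while Shmt2 fell by 1.77. Asparagine synthetase, Asns, rose by 2.84. Falls were also called for Aldh1l1 by 2.35, Mthfd1 by 1.15 and the amino acid carrier Slc1a4 by 0.96. Of 16 genes, 10 rose and 5 fell. In cholesterol synthesis, 8 of 21 fell and 5 rose, and after scaling 13 and 2. Without UIR library 3 8 rose. Cyp51 fell by 2.09, Hmgcs1 by 1.79, Idi1 by 1.74 and Mvd by 1.21. Srebf2, the factor that drives these genes, rose by 0.72, Sqle by 0.47 and Pmvk by 0.37. The last of these turned to -0.11 after scaling and Sqle to -0.04.

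Most detoxification genes fell, while antioxidant genes were divided. Of 23 cytochromes P450 and conjugating enzymes 17 fell and 4 rose. Cyp4a and Ugt3a genes are near-identical copies, so their values may be shared among copies. Cyp24a1, which inactivates vitamin D, was at 24.4, 7.59 and 10.3 FPKM in the sham kidneys and 93.6, 69.1 and 141 FPKM in the UIR kidneys and rose by 2.86 (SE 0.50, limma adjusted p = 7.8e-05), while its effect was -1.42 at day 1 and -2.38 at day 21. Cyp27b1, which activates vitamin D, rose by 1.93 and Cyp1b1 by 2.10. Gpx3, the plasma glutathione peroxidase made by the proximal tubule, was at 21981, 25548 and 21436 FPKM in the sham kidneys and 2819, 2372 and 2169 FPKM in the UIR kidneys, a difference of -3.23 (SE 0.33, limma adjusted p = 2.2e-07). Sod1 was at 942, 1095 and 829 FPKM in the sham kidneys and 179, 189.7 and 193 FPKM in the UIR kidneys and fell by 2.33, and Prdx5 fell by 2.53. Of 23 antioxidant and NRF2 target genes, 13 fell and 8 rose. Nqo1 and Gclm, both NRF2 targets, fell by 0.95 and 0.36. Heme oxygenase, Hmox1, was at 14.9, 26.4 and 15.4 FPKM in the sham kidneys and 58.4, 50.7 and 47.5 FPKM in the UIR kidneys and rose by 1.46. G6pdx and Pgd, which make NADPH, rose by 1.24 and 1.01, Nfe2l2 by 0.98, Txnrd1 by 0.80, Srxn1 by 0.80, Slc7a11 by 0.55 and Prdx6 by 0.49. After scaling the last 4 were at 0.27, 0.28, 0.46 and -0.04, and none was called. The call on Slc7a11 was also lost whichever of the 6 libraries was left out (limma adjusted p = 0.063 to 0.13).

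Genes of DNA replication and mitosis rose almost without exception. Of 20 genes that license and fire replication origins 20 rose (median 2.48), of 30 genes of the replication fork and nucleotide supply 28 rose and 2 fell (median 2.29), and of 40 genes of mitosis 39 rose and 1 fell (median 3.87). After scaling the counts were 20 and 0, 28 and 2, and 39 and 1. The promoters of 4 genes of these lists are shown because replication genes and mitosis genes are known to be controlled by different factors. These are E2F factors in the first case, and the DREAM and MuvB complexes with NF-Y in the second. Each stretch is 120 bases from the RefSeq promoter table of GRCm38.p6, on the strand of the gene and 5′ to 3′, and capitals mark the motif matches. In Mcm5 (chr8:75109270-75109389, plus strand) and Cdc6 (chr11:98907923-98908042, plus strand) the capitals mark E2F motifs. In Cdk1 (chr10:69352913-69353032, minus strand) and Top2a (chr11:99024190-99024309, minus strand) they mark the cell cycle homology region (CHR) motif and the CCAAT box, which NF-Y binds.
Mcm5: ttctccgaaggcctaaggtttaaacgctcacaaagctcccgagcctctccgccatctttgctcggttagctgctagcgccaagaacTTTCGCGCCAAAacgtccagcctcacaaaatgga
Cdc6: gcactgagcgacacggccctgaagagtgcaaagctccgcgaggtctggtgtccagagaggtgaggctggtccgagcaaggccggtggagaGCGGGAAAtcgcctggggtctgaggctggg
Cdk1: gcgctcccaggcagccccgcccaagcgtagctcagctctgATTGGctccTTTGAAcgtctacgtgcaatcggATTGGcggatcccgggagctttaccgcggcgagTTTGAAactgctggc
Top2a: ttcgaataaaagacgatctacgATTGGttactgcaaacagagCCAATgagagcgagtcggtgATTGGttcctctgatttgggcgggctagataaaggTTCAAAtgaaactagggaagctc

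The E2F motif was searched as TTTCCCGC, TTTCGCGC, TTTGGCGC or TTTGCCGC, the CHR motif as TTTGAA and the CCAAT box as CCAAT, on both strands of the 250 bases before the start. In Mcm5 a match on the gene strand and one on the opposite strand overlap by 4 bases. The table held promoters for 40 of the 50 licensing and fork genes and 33 of the 40 mitosis genes, some with more than 1 start. The E2F motif was present in 22.9% of 48 promoters of the licensing and fork genes and in 1.86% of all 32851 promoters. The CHR motif was present in 34.3% of 35 promoters of mitosis genes and in 16% of all promoters, and the CCAAT box in 77.1% against 33.8%. The E2F, CHR and CCAAT letters do not contain each other. A match describes letters in the window and does not show that a factor binds there.

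At the origins, the helicase subunit Mcm5 was at 1.18, 1.07 and 0.94 FPKM in the sham kidneys and 39.2, 34.6 and 40.1 FPKM in the UIR kidneys, a difference of 4.24 (SE 0.11, limma adjusted p = 8.6e-14). Its effect was 0.66 at day 1 and 1.90 at day 21. Mcm3 rose by 4.03, Mcm4 by 3.50, Mcm2 by 2.98 and the helicase cofactor Gins2 by 3.68. The loading factor Cdc6 was at 0.06, 0.10 and 0.17 FPKM in the sham kidneys and 4.55, 3.85 and 4.84 FPKM in the UIR kidneys and rose by 2.28. At the fork, Top2a, the topoisomerase that also resolves mitotic chromosomes, was at 0.41, 0.27 and 0.32 FPKM in the sham kidneys and 48.01, 38.97 and 48.8 FPKM in the UIR kidneys, a difference of 5.11 (SE 0.12, limma adjusted p = 4.7e-14). The methylation maintenance factor Uhrf1 rose by 4.75, the histone chaperone Chaf1b by 3.96, the sliding clamp Pcna by 2.2 and thymidine kinase, Tk1, by 2.97. Rrm2b, the p53-inducible form of a ribonucleotide reductase subunit, fell by 0.33, a call kept only without sham library 2 when single libraries were left out (limma adjusted p = 0.055 to 0.11 in the other 5). No UIR value overlapped a sham value for the risen genes named. For Top2a, which is among the 15 largest increases, this follows from the selection of genes without overlap.

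Drivers of the G1 and S phases rose as well: 21 of 22 did, with a median of 1.88. Ccna2, the S phase cyclin, rose by 5.08, the kinase subunit Cks1b by 4.03, E2f8 by 3.68, E2f1 by 2.37, Mybl2 by 2.75 and Ccne1 by 2.68. Ccnd1, the G1 cyclin, rose by 1.49 at day 3 against -0.31 at day 1 and -0.38 at day 21. In mitosis, the kinase Cdk1 was at 0.22, 0.21 and 0.24 FPKM in the sham kidneys and 21.7, 21.1 and 25.1 FPKM in the UIR kidneys, a difference of 4.27 (SE 0.12, limma adjusted p = 2.1e-13). Its partner Ccnb1 rose by 4.93, Plk1 by 4.60 and Birc5, survivin, by 5.02. Foxm1, the factor that drives mitotic genes, was at 0.29, 0.29 and 0.35 FPKM in the sham kidneys and 27.9, 23.4 and 27.5 FPKM in the UIR kidneys and rose by 4.38 (SE 0.10, limma adjusted p = 4.7e-14). Securin, Pttg1, went the other way at 59.9, 54.6 and 55.5 FPKM in the sham kidneys and 31.8, 36.5 and 32.6 FPKM in the UIR kidneys, a difference of -0.74 (SE 0.10, limma adjusted p = 4.1e-06). Clustered replication histones lack poly(A) tails. Of 29 that were listed, a part of the family, 27 had values and 4 passed the filter. Hist1h2ao and Hist1h4i rose by 5.52 and 1.15, and Hist1h2bc and Hist1h4h fell by 1.68 and 2.86. Hist1h2ao and Hist1h2ap are near-identical, and their reads may be shared.

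Among the days sampled, the medians of the cell cycle lists were highest at day 3. The day 1 medians were 0.26 for licensing, -0.04 for the fork and 0.03 for mitosis. The effect was higher at day 3 than at day 1 for 20 of 20, 28 of 30 and 40 of 40 genes. It was lower at day 21 than at day 3 for 18, 29 and 38. The lists remained above sham at day 21, with 18, 27 and 37 genes risen. The libraries do not show which cells carried these transcripts. Markers of macrophages and of T cells rose in the same kidneys, with the sums given below, and their part in the cell cycle counts was not tested.

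Brakes on the cycle and damage genes rose too. All 7 of 7 inhibitors of cyclin-dependent kinases tested rose. Cdkn1a, which encodes p21, was at 2.94, 4.47 and 2.95 FPKM in the sham kidneys and 57.2, 67.5 and 74.7 FPKM in the UIR kidneys, a difference of 3.93 (SE 0.26, limma adjusted p = 1.4e-09), with effects of 2.68 at day 1 and 3.84 at day 21. Its sham mean was 54.5 FPKM at day 1 against 3.45 FPKM at day 3. Cdkn2b rose by 2.02, Cdkn2c by 1.61, Cdkn1c by 1.12 (0.61 after scaling) and Cdkn2d by 1.24. Cdkn2a, a senescence gene, was at 0, 0 and 0 FPKM in the sham kidneys and 0.47, 0.54 and 0.07 FPKM in the UIR kidneys, rose by 0.42, and reached 1.69 at day 21. Of 28 p53 targets and damage genes 27 rose, with a median of 1.99. Members that act on DNA damage in S phase rose, Brca1 by 2.66, the histone H2afx by 2.62 and the checkpoint kinase Chek1 by 2.51. Trp53 itself was at 18.5, 24.9 and 20.1 FPKM in the sham kidneys and 115, 108 and 109.8 FPKM in the UIR kidneys and rose by 2.35 (SE 0.11, limma adjusted p = 4.1e-11), after -0.93 at day 1. It was chosen after its values were seen. The p53 target Ccng1 was at 0.20 (adjusted p = 0.29).

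**Figure D4:**
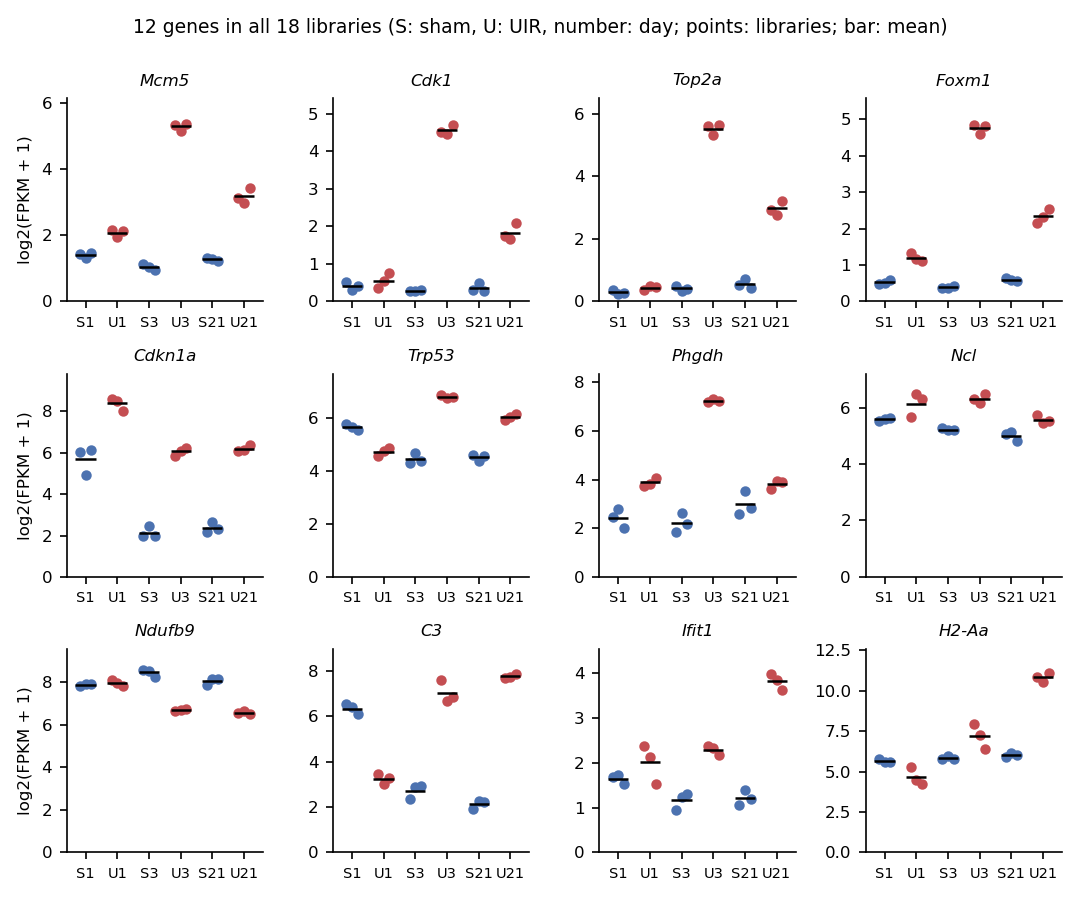
log2(FPKM + 1) (vertical axis) of 12 genes in all 18 libraries, with S for sham, U for UIR and the day as a number, points for libraries and bars for group means. Mcm5, Cdk1, Top2a, Foxm1 and Phgdh are highest in the 3 UIR kidneys of day 3, Ndufb9 is lower in the UIR kidneys of days 3 and 21, and C3 and Cdkn1a are already high in the sham kidneys of day 1.

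Genes that make ribosomes rose. Of 24 tested 22 rose, with a median of 1.10, and 18 were higher after scaling. Nucleolin, Ncl, was at 37.8, 35.5 and 35.5 FPKM in the sham kidneys and 78.5, 70.5 and 87.4 FPKM in the UIR kidneys, a difference of 1.09 (SE 0.16, limma adjusted p = 9.2e-06). Nop56 and Nop58, which guide methylation of ribosomal RNA, rose by 1.70 and 1.56, the chaperone Npm1 by 1.59 and the pseudouridylation factor Gar1 by 1.50. The effect was higher at day 3 than at day 1 for 22 genes and lower at day 21 than at day 3 for 21. Proteins of the large ribosomal subunit differed less and depended on the scaling. As deposited 20 of 37 rose and none fell, with 3 fallen without sham library 3, while after scaling 2 rose and 17 fell. Rpl12 rose by 1.25, Rplp0 by 0.99, Rpl3 by 0.76 and Rplp1 by 0.69, and the last 2 were at 0.23 and 0.16 after scaling. Proteasome subunits were spread around 0, with 9 risen and 3 fallen of 31, and after scaling 0 and 24, with the median going from 0.03 to -0.50.

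Stress programs were mixed. Of 15 heat shock proteins and chaperones, which include the mitochondrial Hspd1 and Hspe1, 8 rose and 3 fell, and after scaling 5 and 4. Without UIR library 1 or UIR library 3, 1 fell. The small heat shock protein Hspb1 was at 4.94, 13.3 and 4.18 FPKM in the sham kidneys and 139, 182 and 149 FPKM in the UIR kidneys, a difference of 4.37 (SE 0.32, limma adjusted p = 4.5e-09), with sham library 2 the highest sham. Cryab rose by 2.71, Hspb8 by 1.60 and Hspa1b by 2.47, after 5.30 at day 1. Hspa1b has a near-identical copy. The mitochondrial chaperones Hspe1 and Hspd1 fell by 1.17 and 0.64, and Dnaja1 by 0.61. In the unfolded protein and ATF4 response 11 of 24 rose and 2 fell, and after scaling 5 and 9, with the median going from 0.40 to -0.12. The median was 0.26 without sham library 3. Without sham library 2, in which Hspa5 was high, 16 rose and 1 fell, and the median went from 0.40 to 0.83. Atf3 rose by 2.74, Atf5 by 1.71 and the kinase-like Trib3 by 1.60, while Herpud1 and Dnajc3 fell by 0.96 and 0.30.

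Of 19 hypoxia-inducible genes 8 rose and 5 fell. The median was 0.20 and became -0.27 after scaling. Vegfa, the endothelial growth factor made by tubules and podocytes, was at 93.97, 116 and 97.7 FPKM in the sham kidneys and 42, 44.4 and 36.7 FPKM in the UIR kidneys, a difference of -1.30 (SE 0.14, limma adjusted p = 4.0e-07). Car9 fell by 1.76 and Bnip3 by 1.65, while the matrix enzyme Loxl2 rose by 2.10 and Ddit4 by 1.81. In regulated cell death 19 of 27 genes rose and 6 fell, with 3 fallen without sham library 3. Mlkl, the executor of necroptosis, was at 0.48, 0.64 and 0.35 FPKM in the sham kidneys and 12.6, 11.9 and 12.1 FPKM in the UIR kidneys, a difference of 3.15 (SE 0.12, limma adjusted p = 3.4e-12). Its activating kinase Ripk3 rose by 2.56, the pyroptosis pore Gsdmd by 2.25, the inhibitor Birc3 by 2.46, Casp4 by 1.57, Casp1 by 1.04 and the ferroptosis-promoting lipid enzyme Acsl4 by 1.65. The ferroptosis guard Gpx4 fell by 1.25, the iron store Fth1 by 1.34, and the transferrin receptor Tfrc by 0.63. Immediate early factors rose in 18 of 21 cases. Fosl1 was at 0, 0.09 and 0.05 FPKM in the sham kidneys and 17.4, 13.8 and 16.6 FPKM in the UIR kidneys and rose by 4.01 (SE 0.28, limma adjusted p = 3.1e-09), after 5.42 at day 1 and before 0.36 at day 21. Klf6 rose by 3.36, Fosl2 by 3.30, Klf5 by 3.29, Junb by 2.71 and Egr1 by 2.31.

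Genes of myeloid cells rose. Of 22 genes of tissue macrophages 21 rose, with a median of 2.49, and of 12 genes of recruited monocytes 10 rose. C1qa, a complement subunit that macrophages make, was at 12.9, 15.2 and 11.8 FPKM in the sham kidneys and 143, 94.1 and 57.8 FPKM in the UIR kidneys, a difference of 2.71 (SE 0.25, limma adjusted p = 5.9e-08). It ran from replicate 1 as the highest UIR library to replicate 3 as the lowest, and its effect was -1.27 at day 1 and 5.39 at day 21. The receptor Csf1r rose by 1.28, Cx3cr1 by 2.19, the lysosomal protein Cd68 by 2.95, Trem2 by 2.83 and Fcgr3 by 3.18. Mertk, by which macrophages clear dead cells, fell by 0.56. The monocyte genes S100a4 and Ccr2 rose by 3.23 and 2.35. Ly6c2, of inflammatory monocytes, was at 1.69, 2.47 and 2.22 FPKM in the sham kidneys and 17.3, 10.3 and 2.25 FPKM in the UIR kidneys, and rose by 1.50 (limma adjusted p = 0.0038). All macrophage markers together summed to 877, 938 and 832 FPKM in the sham and 11407, 9701 and 11035 FPKM in the UIR kidneys, a sum that includes Spp1, which injured tubule cells also make.

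Lymphocyte genes rose from a low base and unevenly. Of 26 genes of T and natural killer cells, 21 passed the filter and 17 rose, with a median of 0.99. Their sum was 20.1, 13.5 and 19.7 FPKM in the sham kidneys and 104, 67.6 and 29.8 FPKM in the UIR kidneys. Cd3e, a subunit of the T cell receptor complex, was at 0.85, 0.38 and 0.65 FPKM in the sham kidneys and 7.41, 3.99 and 0.98 FPKM in the UIR kidneys, so that UIR library 3 came close to the sham values. The difference was 1.43 (SE 0.34, limma adjusted p = 0.0011). Without UIR library 3 the median of the list was 1.33 with 19 risen, and without UIR library 1 it was 0.65 with 16 risen. Lck rose by 1.99, Cd8b1 by 1.64 and Nkg7 by 1.53, and Foxp3 was at -0.03 (adjusted p = 0.81). Dendritic cell genes rose in 7 of 13 cases, near the 57.6% of all genes, with Xcr1 at 0.06 (adjusted p = 0.63) and Flt3 at -0.18 (adjusted p = 0.096). Of B and plasma cell genes 7 of 15 passed the filter. Sdc1, which tubule cells also express, rose by 2.72, while Mzb1 and Cd79a fell by 0.52 and 0.38. Of neutrophil genes, 5 of 12 rose and 1 fell, against 11 risen at day 1. Without sham library 2, UIR library 1 or UIR library 2, 3 rose. S100a9 rose by 1.64 and S100a8 by 1.30 (1.2 and 0.92 after scaling, not called), and Cxcr2 was at 0.03 (adjusted p = 0.83) and at -0.42 after scaling. Ly6g, their defining surface gene, fell by 0.77. Of 13 mast cell, eosinophil and platelet genes 6 passed the filter and 4 rose, the platelet gene Pf4, which macrophages also express, by 3.03.

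**Figure D5:**
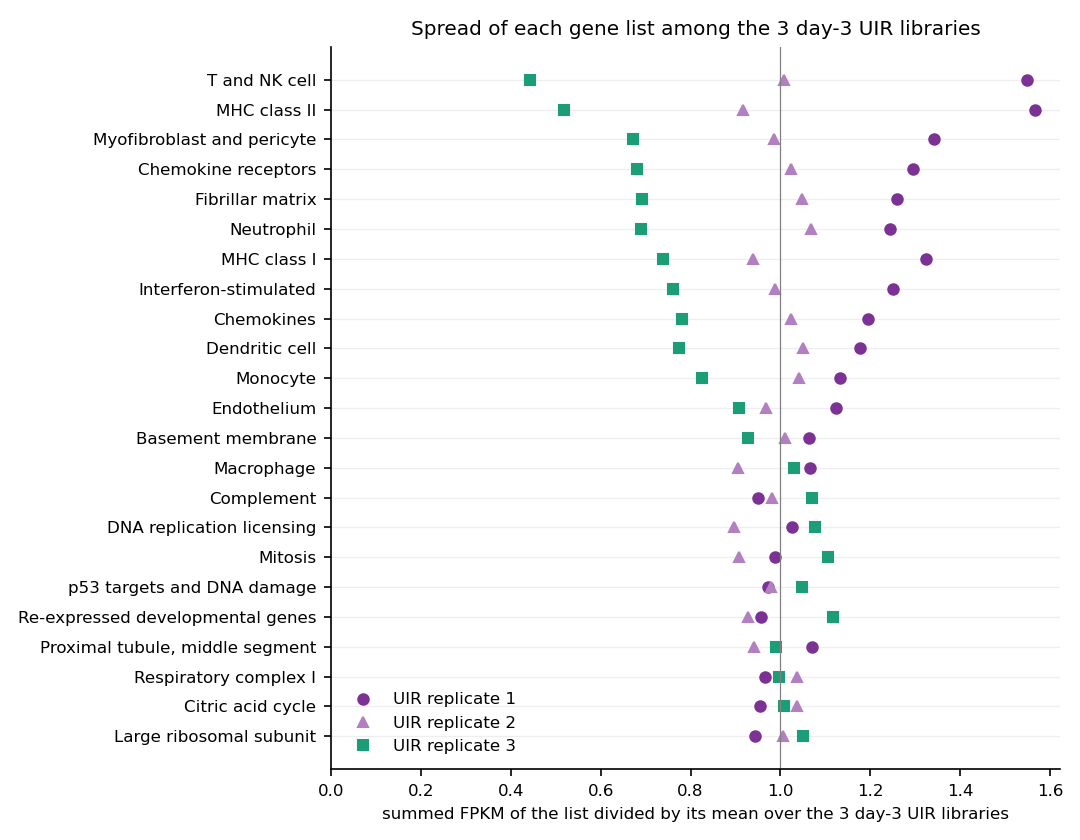
Summed FPKM of 23 gene lists in each of the 3 day-3 UIR libraries, divided by the mean of the 3 (horizontal axis). T and NK cell, MHC class II and stromal lists are highest in UIR replicate 1 and lowest in replicate 3, whereas the lists of replication licensing, mitosis, complex I and the citric acid cycle stay close to 1.

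Chemokines rose in 14 of 27 cases, a share below the 57.6% of all genes, and fell in 3. Cxcl1, which draws neutrophils, was at 0.41, 0.57 and 1.32 FPKM in the sham kidneys and 41.98, 47.5 and 56.2 FPKM in the UIR kidneys, a difference of 4.83 (SE 0.45, limma adjusted p = 7.2e-08). Cxcl10, an interferon-induced ligand of T cells, was at 2.49, 2.81 and 7.19 FPKM in the sham kidneys and 50.5, 49.9 and 33.2 FPKM in the UIR kidneys and rose by 3.23 (SE 0.33, limma adjusted p = 2.0e-07). Ccl7 rose by 2.25 and the membrane-bound Cxcl16 by 1.90. Cxcl12, a chemokine of stroma and podocytes, fell by 1.39, Ccl28 by 1.36 and Ccl25 by 0.38. Without UIR library 3 19 chemokines rose, and without UIR library 1 14 did. Their median of 0.91 was 0.56 without UIR library 2. Of 11 receptors tested 7 rose, Ccr1 by 2.05 and Cxcr4 by 1.43. Their median was 1.31, and 0.90 and 1.85 without UIR libraries 1 and 3. Among cytokines, growth factors of blood cells and their receptors 25 of 36 rose and 2 fell. The interleukin 1 antagonist Il1rn was at 0.09, 0.08 and 0.13 FPKM in the sham kidneys and 22.1, 22.7 and 32.3 FPKM in the UIR kidneys, a difference of 4.58 (SE 0.27, limma adjusted p = 4.7e-10). Csf1, which sustains macrophages, was at 2.40, 2.49 and 1.52 FPKM in the sham kidneys and 45.96, 39.4 and 38.9 FPKM in the UIR kidneys. Its companion ligand Il34 rose by 1.41, the oncostatin receptor Osmr by 2.39, Lif by 2.08, Il33 by 2.06 and Tnf by 1.38. Il15 and the receptor Lifr fell by 1.10 and 0.96. Of 23 genes of STAT3 and NF-kappaB signalling and its feedback 22 rose. The sensor Tlr2 rose by 3.60, the NF-kappaB subunits Relb and Nfkb2 by 3.18 and 2.99, the brake Tnfaip3 by 2.68, Stat3 by 1.74 and its brake Socs3 by 2.24.

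Interferon-stimulated genes rose in 32 of 35 cases, with a median of 1.37, and 29 were higher after scaling. The median was 1.13 without UIR library 1 and 1.55 without UIR library 3. The promoters of Ifit1 (chr19:34640769-34640888, plus strand) and Cxcl10 (chr5:92349020-92349139, minus strand) are shown because both hold the core of the element bound by interferon-activated factors, in capitals. They are 120 bases each from the same table.
Ifit1: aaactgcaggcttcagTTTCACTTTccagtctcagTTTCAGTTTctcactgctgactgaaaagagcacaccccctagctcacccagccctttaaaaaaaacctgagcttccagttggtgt
Cxcl10: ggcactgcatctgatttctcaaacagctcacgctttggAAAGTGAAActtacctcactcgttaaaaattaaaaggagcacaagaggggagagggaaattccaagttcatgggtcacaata
The core was searched as TTTCNNTTT on both strands of the 250 bases before the start. The table held promoters for 27 of the 35 listed genes. The core was present in 54.5% of 33 promoters of these genes and in 9.37% of all promoters.

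Ifit1, an antiviral protein that binds foreign RNA, was at 0.92, 1.37 and 1.48 FPKM in the sham kidneys and 4.23, 4.00 and 3.51 FPKM in the UIR kidneys, a difference of 1.13 (SE 0.17, limma adjusted p = 2.3e-05). Oasl1 rose by 2.85, Irf1 by 2.42, Irf7 by 1.54 and the ubiquitin-like Isg15 by 1.29. Oas3 went the other way at 5.25, 6.13 and 5.22 FPKM in the sham kidneys and 2.00, 1.35 and 1.03 FPKM in the UIR kidneys, a difference of -1.43 (SE 0.15, limma adjusted p = 2.6e-07). At day 1 the median of the list was -0.05, and 31 of 35 effects were higher at day 3 than at day 1. At day 21 the median was 2.68, and 24 were higher than at day 3.

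Antigen presentation rose. Of 14 class I and immunoproteasome genes 13 rose, with a median of 1.64 (1.39 and 1.81 without UIR libraries 1 and 3), and of 9 class II genes 8 rose, with a median of 1.37. The immunoproteasome subunits Psmb10, Psmb8 and Psmb9 rose by 2.50, 2.26 and 1.92, the peptide pump Tap1 by 2.23, B2m by 1.31 and H2-K1, which has near-identical relatives, by 1.68. The class II chain H2-Aa was at 53.8, 60.8 and 54.6 FPKM in the sham kidneys and 244, 154 and 82.1 FPKM in the UIR kidneys, a difference of 1.35 (SE 0.30, limma adjusted p = 6.9e-04), with the UIR libraries spread by more than the sham libraries. Ctss rose by 2.64, H2-DMa by 2.04, the class II transactivator Ciita by 1.84, Cd74 by 1.54 and H2-Eb1 by 1.28. The class II median was 1.77 without UIR library 3 and 0.98 without UIR library 1. Macrophage, dendritic and T cell genes, which include users of this pathway, rose in the same libraries, and their part in the class II values was not tested. The class II median had been -0.86 at day 1, when 6 genes had fallen, and reached 4.55 at day 21.

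Complement was divided. Of 19 genes 10 rose, a share below the 57.6% of all genes, and 3 fell. C3, the central component, was at 4.05, 6.27 and 6.56 FPKM in the sham kidneys and 191, 99.4 and 112 FPKM in the UIR kidneys, a difference of 4.31 (SE 0.21, limma adjusted p = 6.3e-11). Clusterin, Clu, rose by 3.79, properdin, Cfp, by 2.45, and the receptors C5ar1 and C3ar1 by 2.34 and 1.72. Factor B, Cfb, which the alternative pathway needs, was at 197, 178 and 197 FPKM in the sham kidneys and 79.5, 70.4 and 78.3 FPKM in the UIR kidneys and differed by -1.32 (SE 0.13, limma adjusted p = 2.0e-07). The regulator Cd55 fell by 0.79 and C8g by 1.66. C4b was at -0.05 (adjusted p = 0.88). The median of the list was 1.36 without UIR library 3 and 0.55 without UIR library 1, against 0.98 with both.

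Matrix genes rose, the provisional matrix most. Of 14 genes of provisional and matricellular matrix 14 rose (median 2.01). Fibronectin, Fn1, rose by 3.25, Thbs1 by 2.07, Ctgf by 2.08 and Postn by 1.23. Of 29 genes of fibrillar collagens and their assembly 24 rose (median 1.37). Col1a1, the main collagen of scar, was at 5.98, 6.79 and 3.52 FPKM in the sham kidneys and 132, 82.1 and 35.1 FPKM in the UIR kidneys, a difference of 3.56 (SE 0.42, limma adjusted p = 1.3e-06). Its UIR values had the same order as those of Cd3e, and the median of the list was 1.58 without UIR library 3 and 1.25 without UIR library 1. Col3a1 rose by 3.03, Col1a2 by 2.70, Sparc by 2.45 and the crosslinker Lox by 1.29. Of 19 pericyte and myofibroblast genes 14 rose, Pdgfb by 2.75, Tagln by 2.54 and Pdgfrb by 1.28, while renin, Ren1, was at 0.30 (adjusted p = 0.53). Without UIR library 1 12 of them rose, and without UIR library 3 16 did.

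In the basement membrane, 16 of 21 genes rose and 2 fell. The chains of type IV collagen parted. Col4a1, of the form laid down in all basement membranes, was at 34.6, 37.8 and 26.2 FPKM in the sham kidneys and 195, 186 and 156 FPKM in the UIR kidneys, a difference of 2.42 (SE 0.14, limma adjusted p = 2.3e-10). Col4a3, of the mature glomerular form, was at 39.8, 46.8 and 48 FPKM in the sham kidneys and 14.7, 14.7 and 14.6 FPKM in the UIR kidneys, a difference of -1.54 (SE 0.11, limma adjusted p = 5.1e-09), and Col4a4 fell by 0.95. Nid1 rose by 2.66, Col18a1 by 2.41 and Agrn by 2.35, after -0.51 at day 1. Of 21 integrins 19 rose, Itga3 by 3.06, the fibronectin receptor subunit Itga5 by 2.31, Itgav by 2.15 and the leukocyte subunit Itgam by 2.51. The platelet subunit Itga2b fell by 0.78.

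Of 29 proteases and inhibitors of proteases tested 21 rose and 4 fell. The inhibitor Timp1 was at 0.36, 0.69 and 0.19 FPKM in the sham kidneys and 29.7, 30.1 and 28.2 FPKM in the UIR kidneys, a difference of 4.44 (SE 0.24, limma adjusted p = 2.0e-10). Timp3, the inhibitor bound to healthy kidney matrix, was at 615, 553 and 684 FPKM in the sham kidneys and 192, 175 and 160.5 FPKM in the UIR kidneys, a difference of -1.80 (SE 0.14, limma adjusted p = 1.2e-08). The brush border meprins Mep1a and Mep1b fell by 3.14 and 5.57, and Adamts15 by 2.01. Adam8 rose by 3.36, Adamts1 by 3.34, the membrane collagenase Mmp14 by 2.81 and Mmp2 by 2.04. Mmp7 was at 0.52 (adjusted p = 0.23) at day 3 and 4.81 at day 21. Mmp12, the macrophage elastase, was at 0.37 and 5.87.

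Growth factor pathways changed at the level of ligands, receptors and targets. In the TGF-beta pathway 23 of 32 genes rose and 2 fell. The ligand Tgfb1 rose by 2.69 and Tgfb2 by 1.08, the receptor Tgfbr2 by 2.02, and the target Tgfbi by 2.32. Bmp7, which protects the tubule, fell by 0.84. In the EGF family 8 of 13 rose and 2 fell. The ligands Nrg1, Areg, Tgfa and Hbegf rose by 1.61, 1.47, 1.32 and 1.08 (0.59 after scaling for the last), the shedding protease Adam17 by 1.21, and the receptor Egfr by 0.51, which became 0.01 after scaling. Nrg4 fell by 0.39, and Egf as given above. In the Wnt pathway 18 of 26 rose. Wnt4, which guides nephron formation, rose by 1.74, Wnt7b by 1.47, the transcription factor Tcf7 by 1.87 and Dkk3 by 1.64, and Wnt5b fell by 0.75. In the Notch pathway 13 of 16 rose, among them the ligand Jag1 by 1.70, the receptor Notch2 by 1.75, the modifier Lfng by 2.18 and the target Heyl by 1.68. Of 27 other repair factors 13 rose and 5 fell, and after scaling 9 and 11. Igfbp2 rose by 1.95 and the hepatocyte growth factor receptor Met by 1.10. Fgf1 fell by 1.89, Igfbp3 by 1.56, Igfbp4 by 1.58 and Igfbp1 by 0.81.

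Endocrine genes of the kidney fell in 12 of 19 cases and rose in 5. Ace, the converting enzyme of the brush border and endothelium, was at 64.01, 59.4 and 68.2 FPKM in the sham kidneys and 8.32, 8.40 and 8.99 FPKM in the UIR kidneys, a difference of -2.76 (SE 0.19, limma adjusted p = 1.9e-09). The growth hormone receptor Ghr was at 282, 335 and 275 FPKM in the sham kidneys and 48.2, 43.1 and 54.96 FPKM in the UIR kidneys, a difference of -2.58 (SE 0.16, limma adjusted p = 8.9e-10). The deiodinase Dio1 fell by 2.79 and the parathyroid hormone receptor Pth1r by 1.04. The mineralocorticoid receptor Nr3c2 rose by 1.03, Fgfr1 by 0.52 and Nr3c1 by 0.38, and the last 2 were at 0.02 and -0.13 after scaling.

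Endothelial genes rose in 12 of 22 cases, a share near the 57.6% of all genes, and after scaling 7 rose and 3 fell. The median was 0.55, and 0.33 without sham library 3. The adhesion receptor Icam1 rose by 2.36, the junction proteins Cdh5 and Pecam1 by 1.30 and 1.11, and Pdpn of lymphatic vessels and podocytes by 3.22. The receptor Kdr was at -0.36 (adjusted p = 0.17), Plvap of fenestrated capillaries at 0.17 (adjusted p = 0.6) and Vwf at 0.03 (adjusted p = 0.84). Of 18 podocyte and parietal cell genes 12 rose and 1 fell. Nes rose by 2.84, Kirrel by 2.73 and Cd2ap by 1.70. The slit diaphragm gene Nphs1 was at 0.51 (adjusted p = 0.015), and at 0.05 after scaling.

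Genes of other tissues and of the animal's state were also measured. Hemoglobin genes, which share sequence among copies, fell. Hba-a1 was at 309.6, 1060.2 and 227 FPKM in the sham kidneys and 40.5, 43.2 and 39.5 FPKM in the UIR kidneys, a difference of -3.33 (SE 0.46, limma adjusted p = 7.2e-06), and the median of 8 red cell genes went from -2.47 to -1.85 without sham library 2. The erythroid enzyme Alas2 fell by 1.66, and Epb42 rose by 0.90. Of 9 hepatocyte genes 5 rose and 3 fell. Alb was at 2.37, 2.37 and 2.51 FPKM in the sham kidneys and 10.2, 10.4 and 12.6 FPKM in the UIR kidneys, a difference of 1.82 (SE 0.15, limma adjusted p = 2.6e-08). The secreted proteins Ahsg and Serpina3k were at 0 in the sham libraries and rose by 1.74 and 1.47, while Ttr fell by 4.20 and Serpina1a by 3.01. Of 17 circadian clock genes 7 fell and 4 rose. Among the fallen were Hlf by 3.27, Dbp by 2.25, Tef by 1.59 and Ciart by 1.11. The UIR and sham values of Dbp and Ciart overlapped, with sham library 2 the lowest sham. The call on Ciart was lost in 5 fits without a library (limma adjusted p = 0.06 to 0.16). The counts for 17 clock genes went from 4 risen and 7 fallen to 8 and 8 without sham library 2, and 4 fell without sham library 1 or 3. Of 11 kidney genes that depend on androgen 9 fell, among them Cyp4a12a by 5.88, Cyp2d9 by 5.72 and Acsm3 by 5.66, while Gusb rose by 1.34. Of 10 skeletal muscle genes 3 passed the filter, and of 11 adipocyte genes 6. Their part in the results was not tested.

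Among the 15 largest increases and the 15 largest decreases, several genes lie outside these lists. Aoc1, the diamine oxidase that breaks down histamine and polyamines, was at 0.67, 1.23 and 0.87 FPKM in the sham kidneys and 81.6, 74.8 and 68.5 FPKM in the UIR kidneys, a difference of 5.31 (SE 0.17, limma adjusted p = 7.3e-13). Sprr2f, a cornified envelope protein, was at 0, 0.23 and 0 FPKM in the sham kidneys and 20.9, 47.05 and 60.8 FPKM in the UIR kidneys, a difference of 5.23 (SE 0.28, limma adjusted p = 1.8e-10). Dnase1, the secreted nuclease of the tubule, was at 326, 438 and 364 FPKM in the sham kidneys and 4.30, 4.23 and 4.12 FPKM in the UIR kidneys, a difference of -6.17 (SE 0.43, limma adjusted p = 3.0e-09). The steroid enzyme Akr1c21 was at 1364, 1468 and 1345 FPKM in the sham kidneys and 34.7, 21.02 and 10.6 FPKM in the UIR kidneys, with UIR library 1 the highest UIR value, and differed by -6.06 (SE 0.64, limma adjusted p = 3.6e-07). Ugt3a2, a conjugating enzyme, and Cyp4a10, a fatty acid hydroxylase, differed by -6.30 and -6.35. Only genes without overlap of UIR and sham values entered this ranking, so the lack of overlap in these 6 genes follows from the selection.

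Over time, most day 3 differences were also present at day 21, and fewer at day 1. Of the 8470 genes risen at day 3, 7255 were also risen at day 21, 180 had fallen and 1035 were not called. At day 1, 3439 of them were risen, 1493 fallen and 3538 not called. Of the 2634 genes fallen at day 3, 2114 were fallen at day 21 and 1726 at day 1. Over all 14716 genes tested, 8934 were risen and 2951 fallen at day 21, and 4187 were risen and 4583 fallen at day 1. Each day has its own sham mice, so that these comparisons share no control libraries. The sham mice of day 1 differed from those of later days: C3 averaged 80.1 FPKM in them, against 5.63 FPKM in the sham mice of day 3 and 3.43 FPKM in those of day 21. A difference between days can therefore come from either arm, and the group means of both arms are given with the genes whose effects moved most.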

How the data were processed

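Kidney RNA from 18 mice, 3 per group, was compared between UIR and sham at day 3. The authors deposited 1 table of FPKM per gene and library, and log2(FPKM + 1) was computed from it. The submitters' processing notes name RSEM 1.2.12, HISAT2 2.0.4 and Bowtie2 2.2.5, and mm9 as the genome build, without the role of each. The library kit, the strand setting and the number of reads are not given in the sources used here. RSEM shares reads among similar copies by estimate, so near-identical genes are uncertain, as are overlapping and antisense genes. Depth behind a value is unknown beyond the rough guide from ratios of low values, so no count test was run.

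A mean per group was fitted to all 18 libraries with limma 3.58.1 in R 4.3.3 (12 residual degrees of freedom, variance trend, two-sided moderated test, Benjamini-Hochberg over 14716 genes). A value per gene of 3 against 3 libraries alone cannot give an exact permutation p below 0.1. In simulated data, 100 genes were changed by a log2 difference of 1 and 100 by 2, with independent noise and no scaling difference between libraries. The fit called 95% and 99% of them, with 5 false calls among 14516 unchanged genes. In the deposited data 75.5% of genes were called and the direction depended on scaling, so the simulation does not give the error rate of this comparison. Interaction contrasts compared the effect of day 3 with those of days 1 and 21. Promoters and coordinates come from RefSeq on GRCm38.p6, which differs from the build of the files, and were joined by gene ID only. Symbols that had been turned into dates (27 genes) were restored from their gene IDs. 

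The genes and the 78 lists were chosen with earlier results of these data known, and no list was tested as a set. Named genes are the 15 largest increases and 15 largest decreases with a mean of at least 5 FPKM and no overlap between groups, key members of each list, up to 4 members of each list with the largest change in its main direction, members called in the other direction, and the 4 largest differences between days in each direction. Some genes that this rule names are not reported here. Alternatives were other pseudocounts (0.1 and 5), filters, scalings, library weights, no variance trend, a replicate block, the day-3 libraries alone, and leaving out each day-3 library. List counts without each library were added after the data were seen.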

Additional observations from a re-analysis of the deposited data

Results flagged for a closer look

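The effect of UIR differed between days for many genes, and the 4 largest differences in each direction were looked at more closely. Each is a test of the difference itself, and each day has its own sham group, so the means of both arms are given.

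From day 1 to day 3 the effect on C3 rose by 7.39 (SE 0.30, limma adjusted p = 5.7e-11), with group means of 80.1 FPKM in sham and 8.60 FPKM in UIR kidneys at day 1 and 5.63 and 134 FPKM at day 3. Its sham mean was higher and its UIR mean lower at day 1 than at day 3. The effect on Havcr1, a surface protein of injured tubule, rose by 6.28 (SE 0.80, limma adjusted p = 6.5e-06), with group means of 30.9 FPKM in sham and 161 FPKM in UIR kidneys at day 1 and 2.89 and 1176 FPKM at day 3. For Aoc1, the diamine oxidase, the effect rose by 6.00 (SE 0.25, limma adjusted p = 6.0e-11), with group means of 1.92 FPKM in sham and 0.86 FPKM in UIR kidneys at day 1 and 0.92 and 75 FPKM at day 3. For the histone gene Hist1h2ao, which has near-identical copies, it rose by 5.91 (SE 0.56, limma adjusted p = 3.1e-07), with group means of 0.42 FPKM in sham and 0 FPKM in UIR kidneys at day 1 and 0.51 and 66.1 FPKM at day 3.

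In the other direction, the carrier Slc7a13 of the straight proximal tubule had a difference of -7.56 (SE 0.69, limma adjusted p = 2.3e-07), with group means of 56.8 FPKM in sham and 41.04 FPKM in UIR kidneys at day 1 and 407 and 0.45 FPKM at day 3. Its sham mean was lower at day 1 than at day 3. The methyltransferase gene Inmt had a difference of -6.66 (SE 0.50, limma adjusted p = 3.2e-08), with group means of 298 FPKM in sham and 188 FPKM in UIR kidneys at day 1 and 1046 and 5.20 FPKM at day 3. For the carboxylesterase Ces1f the value was -6.31 (SE 0.48, limma adjusted p = 3.4e-08), with group means of 232 FPKM in sham and 138 FPKM in UIR kidneys at day 1 and 493 and 2.90 FPKM at day 3. For the steroid enzyme Akr1c21 it was -6.08 (SE 0.91, limma adjusted p = 3.3e-05), with group means of 360.1 FPKM in sham and 406 FPKM in UIR kidneys at day 1 and 1392 and 22.1 FPKM at day 3.

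From day 3 to day 21 the 4 largest rises in effect were those of Retnla, Mmp12, Ccl8 and Ear2. Retnla, a secreted protein of macrophages and other cells, had a difference of 6.06 (SE 0.19, limma adjusted p = 1.4e-11), with group means of 0.11 FPKM in sham and 75.3 FPKM in UIR kidneys at day 21 and 0.05 and 0.06 FPKM at day 3. Mmp12, the macrophage elastase, had a difference of 5.50 (SE 0.18, limma adjusted p = 2.2e-11), with group means of 0.74 FPKM in sham and 101 FPKM in UIR kidneys at day 21 and 0.40 and 0.80 FPKM at day 3. The chemokine Ccl8 had one of 5.00 (SE 0.42, limma adjusted p = 2.9e-07), with group means of 0.13 FPKM in sham and 70.8 FPKM in UIR kidneys at day 21 and 0.09 and 1.25 FPKM at day 3. Ear2, a ribonuclease of eosinophils and macrophages, had one of 4.93 (SE 0.31, limma adjusted p = 1.8e-08), with group means of 0.25 FPKM in sham and 58.7 FPKM in UIR kidneys at day 21 and 0.13 and 0.76 FPKM at day 3.

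Over the same interval the effect fell for 4 genes that peaked at day 3. Cyp24a1, the vitamin D 24-hydroxylase, had a difference of -5.24 (SE 0.71, limma adjusted p = 2.7e-05), with group means of 28.2 FPKM in sham and 4.23 FPKM in UIR kidneys at day 21 and 14.1 and 101 FPKM at day 3. Phgdh of serine synthesis had one of -4.17 (SE 0.33, limma adjusted p = 1.5e-07), with group means of 7.17 FPKM in sham and 13.2 FPKM in UIR kidneys at day 21 and 3.76 and 149.8 FPKM at day 3. Rrm2, the S phase subunit of ribonucleotide reductase, had one of -4.04 (SE 0.26, limma adjusted p = 2.0e-08), with group means of 1.73 FPKM in sham and 5.78 FPKM in UIR kidneys at day 21 and 1.15 and 86.2 FPKM at day 3. Havcr1 had one of -4.00 (SE 0.80, limma adjusted p = 7.7e-04), with group means of 0.65 FPKM in sham and 40.7 FPKM in UIR kidneys at day 21 and 2.89 and 1176 FPKM at day 3.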

How the results depend on the processing

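The count of 11104 genes called at day 3 ranged from 10549 to 10820 when each day-3 library was left out in turn, and was 12097 without a filter, 9179 with the stricter one, 12176 with library weights and 11108 with the day-3 libraries alone. The risen genes ranged from 8080 to 8276 and the fallen genes from 2459 to 2548 without single libraries. Scaling changed the split: median-of-ratios scaling called 5124 higher and 4960 lower, and quantile normalization 5100 and 4858, against 8470 and 2634 as deposited. These methods set the typical gene equal across libraries, and the data do not show whether it was.

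Effects that differed between days 3 and 1 ranged from 8708 to 9026 without single libraries (9253 with all), and those between days 21 and 3 from 5992 to 6696 (6800 with all). With the replicate number as a block 11058 genes were called. The labels do not say whether the numbers pair the samples. Deviations from the group mean correlated at -0.01, 0.10 and 0.11 between same-numbered sham and UIR libraries, and at -0.12 to 0.05 between the others. Not every library correlated best with its own number. With 3 libraries per group the deviations depend on each other, so these correlations cannot decide whether samples were paired.

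Over the named genes, leaving out 1 library kept direction and call in 2601 of 2700 gene and setting pairs, lost the call in 95 and gained it in 4. Other scalings kept 1235 of 1350, lost 75, gained 18 and turned the direction in 22. The remaining alternatives kept 3524 of 3575. After median-of-ratios scaling the direction turned for Ctsb (-0.04), Cxcr2 (-0.42), Ldha (-0.42), Mrpl19 (-0.09), Nmnat3 (-0.14), Nr3c1 (-0.13), Oat (-0.25), Pmvk (-0.11), Prdx6 (-0.04), Slc7a8 (-0.06) and Sqle (-0.04). After quantile normalization it turned for Abcd2 (-0.30), Cldn16 (-0.10), Cxcr2 (-0.61), Gapdh (0.30), Mmp12 (-0.13), Mrpl19 (-0.27), Nmnat3 (-0.16), Nphs1 (-0.11), Pmvk (-0.15), Vwf (-0.38) and Xcr1 (-0.40).

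The calls of 29 named genes were lost in at least 1 fit without a library, with limma adjusted p from 0.05 to 0.19. Without sham library 1 these were Abcd2, Cdkn1c, Ciart, Hmx2, Hspd1, Igfbp1, Kcnj1, Mmp12, Nphs1, Oat, Rrm2b, Scnn1a, Slc14a2, Slc4a9, Slc7a11 and Sqle. Without sham library 2 they were Abcd2, Ccl25, Cd79a, Dnaja1, Dnajc3, Ear2, Hmx2, Hsd11b2, Kcnj1, S100a8, Slc14a2, Slc7a11, Tfrc and Umod. Without sham library 3 they were Cdkn1c, Ciart, Cldn16, Hmx2, Hsd11b2, Hspd1, Igfbp1, Kcnj1, Mmp12, Nphs1, Oat, Rrm2b, Slc14a2, Slc4a9, Slc7a11, Slc7a8, Sqle and Tfrc. Without UIR library 1 they were Abcd2, Ccl25, Cdkn2a, Ciart, Cldn16, Dnaja1, Ear2, Hspd1, Kcnj1, Mmp12, Rrm2b, S100a8, Slc14a2, Slc7a11, Sqle and Tfrc. Without UIR library 2 they were Abcd2, Ccl25, Ccl8, Cd79a, Cdkn1c, Cdkn2a, Ciart, Cldn16, Hsd11b2, Hspd1, Kcnj1, Oat, Rrm2b, S100a8, Slc7a11, Sqle and Tfrc. Without UIR library 3 they were Cd79a, Cdkn1c, Ciart, Dnaja1, Dnajc3, Hmx2, Hspd1, Kcnj1, Rrm2b, Scnn1a, Slc14a2, Slc4a9, Slc7a11 and Umod.

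Over the genes tested as deposited, list medians turned sign after median-of-ratios scaling for principal cells (-0.32), glycolysis (-0.27), cholesterol synthesis (-0.45), the large ribosomal subunit (-0.23), the proteasome (-0.50), heat shock proteins and chaperones (-0.03), the unfolded protein and ATF4 response (-0.12), hypoxia-inducible genes (-0.27), B and plasma cells (-0.40), other repair factors (-0.18) and the 1 adrenal gene tested (-0.25). They turned after quantile normalization for protein uptake (0.06), principal cells (-0.18), cholesterol synthesis (-0.39), hypoxia-inducible genes (-0.21), dendritic cells (-0.06), B and plasma cells (-0.40), other repair factors (-0.17) and the adrenal gene (-0.53). After rescaling to TPM they turned for protein uptake (0.10), histones (0.20), skeletal muscle (0.79) and clock genes (0.08). Lists with a median within 0.05 of 0 (cholesterol synthesis, the proteasome, B and plasma cells, other repair factors, adipocyte and muscle genes) also turned under another filter or without 1 library. The histone median was 0.15 without a filter, the hepatocyte median -0.57 with the stricter filter, and the clock median 0.01 without sham library 3. The causes of these turns beyond the construction of each alternative were not tested. Values below about 1 FPKM rest on few reads, and their size depends on the pseudocount.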
